A study of Mus musculus with 6 samples.

Results

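HIF subunits and oxygen sensing enzymes were examined in A20 cells, a mouse B cell lymphoma line. They comprised 8 genes, namely the alpha subunits Hif1a and Epas1, their partner Arnt, the prolyl hydroxylases Egln1, Egln2 and Egln3, the asparaginyl hydroxylase Hif1an, and Vhl. They were taken from the 27179 gene entries of the count files by Entrez GeneID. RNA-seq covered 3 groups of 2 libraries, all from A20 cells of the BALB/C strain grown in RPMI medium with GlutaMAX, β-mercaptoethanol and foetal calf serum. Wild-type A20 cells carried no construct. The control sgRNA and Cd4 sgRNA groups both carried TETact-v3, in which lentiviral vectors deliver dCas9 fused to GCN4 peptide repeats, an antibody fragment that brings the TET1 catalytic domain to those repeats, and an MCP-p65-hsf1 activator that binds RNA aptamers in the sgRNA. The sgRNA was non-targeting in the control group and directed at the Cd4 promoter in the other. Transduced cells were enriched by flow sorting and assayed a week after sgRNA transduction, so a comparison of either group with wild-type A20 contains every step of transduction and sorting as well as the expressed proteins. No library in the series was labelled as hypoxic, and no oxygen level is given in the sources used here.

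Cells sense oxygen through enzymes that use it as a substrate. When oxygen is plentiful, the prolyl hydroxylases encoded by the Egln genes modify the HIF alpha subunits, VHL binds the modified protein, and a cullin ubiquitin ligase marks it for degradation, while the enzyme encoded by Hif1an blocks the contact of HIF alpha with its coactivators. When oxygen is scarce, HIF alpha accumulates, pairs with ARNT and binds DNA at hypoxia response elements, with glucose transport, glycolysis and mitophagy genes among its targets. Since HIF alpha is controlled mainly at the protein level, mRNA counts do not measure its activity, and Egln1 and Egln3 are themselves established HIF target genes.

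The 6 libraries held between 23194920 and 121623410 counts, and the control sgRNA libraries were the deepest. Values are given as CPM, the count of a gene per 1000000 counts of the TMM-scaled library, and 3 counts, taken as the floor of detection, corresponded to between 0.0270 and 0.140 CPM. Cd4 had between 17 and 127 counts in the wild-type and control sgRNA libraries and 30959 and 40422 in the Cd4 sgRNA libraries, as the labels say. All 9 B cell markers were above the floor in every library, with a summed level of 7668 and 7730 CPM in wild-type A20, 4963 and 7687 CPM in control sgRNA cells and 4771 and 4211 CPM in Cd4 sgRNA cells. In control sgRNA and Cd4 sgRNA cells 4 and 3 of them were lower than in wild type (edgeR), against 13.5% and 10.7% of all tested genes. Of 6 T cell markers other than Cd4 at most 1 was above the floor in any library, with a summed level of 0.0916 to 0.383 CPM, and Cd3e and Cd8b1 had no count. Of 6 myeloid markers 3 to 5 were above the floor, with a summed level of 1.78 to 6.997 CPM, and Cd14 had no count. Control sgRNA replicate 2 stood apart from replicate 1, and a mitochondrial share of 11.5% was the highest of any library, against 6.63% in its replicate 1, while wild-type cells had 2.65% and 2.69% and Cd4 sgRNA cells 5.96% and 6.90%. Its part in the values below was not tested. With 2 libraries a group, the smallest exact permutation p is 0.333, so every call below rests on a model fitted across all genes.

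The promoters of Egln1 and Egln3, whose values were both high in the control sgRNA libraries, are shown beside those of Hif1a and Egln2, whose values were not. Each sequence is the 250 bases before a RefSeq start site in GRCm38.p6, read 5′ to 3′ on the strand of the gene. Capitals mark matches on either strand to ACGTG or GCGTG, the cores of the hypoxia response element.
Egln1, chr8:124949255-124949504, minus strand: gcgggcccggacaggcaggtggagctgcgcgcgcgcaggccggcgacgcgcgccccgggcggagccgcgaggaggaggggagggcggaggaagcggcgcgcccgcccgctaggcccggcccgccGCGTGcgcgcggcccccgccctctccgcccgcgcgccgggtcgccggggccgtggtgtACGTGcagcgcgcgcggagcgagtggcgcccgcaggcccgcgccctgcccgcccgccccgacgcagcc
Egln3, chr12:54203875-54204124, minus strand: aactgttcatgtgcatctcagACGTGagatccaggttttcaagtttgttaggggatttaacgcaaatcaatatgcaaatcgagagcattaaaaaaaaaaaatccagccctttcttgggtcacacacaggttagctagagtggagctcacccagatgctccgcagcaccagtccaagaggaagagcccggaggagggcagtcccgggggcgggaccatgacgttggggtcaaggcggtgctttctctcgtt
Hif1a, chr12:73907617-73907866, plus strand: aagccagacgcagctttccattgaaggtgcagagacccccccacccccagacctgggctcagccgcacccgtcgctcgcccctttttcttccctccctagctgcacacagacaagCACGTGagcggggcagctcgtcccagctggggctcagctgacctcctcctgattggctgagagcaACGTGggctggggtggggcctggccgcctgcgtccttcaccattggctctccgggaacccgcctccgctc
Egln2, chr7:27166803-27167052, minus strand: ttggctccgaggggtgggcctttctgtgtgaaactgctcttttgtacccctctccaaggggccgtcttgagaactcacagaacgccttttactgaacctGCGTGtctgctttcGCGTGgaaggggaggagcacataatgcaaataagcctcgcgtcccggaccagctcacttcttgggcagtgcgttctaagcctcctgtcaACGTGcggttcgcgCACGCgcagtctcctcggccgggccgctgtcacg

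A window was at hand for 7 of the 8 genes. The Egln1 window held GCGTG at position -126 and ACGTG at -68, counted from the start site, and the Egln3 window held ACGTG at -229. The Hif1a window held ACGTG at -70 and a palindrome, CACGTG, that matches on both strands at -135 and -134. This window lies inside the span of Hif1a, which begins at 73901324, so it precedes an internal start site. No window before the outermost start of Hif1a was at hand. The Egln2 window held GCGTG at -151, -137 and, on the reverse strand, -34, and ACGTG at -48, and a second Egln2 window downstream of it held GCGTG at -116. Arnt held GCGTG at -29, and neither motif was found in the windows of Vhl and Hif1an. ACGTG was present in 16.6% and GCGTG in 28.2% of all 32851 windows of this length, and 38.6% held either of them. The Egln1 window was by far the richest in CpG, the dinucleotide on which TET1 acts when it is methylated, with 51 sites against a median of 6 over all windows. The others held 20 CpG for Vhl and for the first Egln2 window, 14 for Hif1a, 12 for Arnt and Hif1an, 10 for Egln3 and 4 for the second Egln2 window. DNA methylation was not analysed here.

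Control sgRNA cells were first set against wild-type A20, the comparison that shows the cells with the whole system but no target in the genome. Egln1 rose 2.61-fold and Arnt 1.51-fold, Egln2 fell by 0.48 on the log2 scale, and Egln3 went from near the floor to a low but clear level. Of the 7 genes that passed the low-count filter, 3 had gone up and 1 had gone down at an adjusted p under 0.05 (two-sided quasi-likelihood test in edgeR, Benjamini-Hochberg adjusted), against 28% of the 12418 genes tested, 14.5% higher and 13.5% lower. The groups did not overlap for 6 of the 7, against 67.1% of all tested genes. Hif1a, Hif1an and Vhl did not pass. The count of higher genes and the count without overlap both include Egln3, which passed the filter only through the control sgRNA libraries, where it is high. Neither its call nor its lack of overlap is therefore support.

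In Cd4 sgRNA cells, also set against wild-type A20, Arnt rose 1.35-fold, and Egln2 and Vhl fell by 0.46 and 0.53 on the log2 scale. Of the 7 genes 1 was higher and 2 were lower, against 20.5% of all genes tested, 9.85% higher and 10.7% lower, and the groups did not overlap for 6 of the 7, against 79.8% of all tested genes. Scaling by library size alone turned the split over all genes from 1223 higher and 1327 lower to 1491 higher and 1160 lower. Egln1 and Egln3, which were high in control sgRNA cells, did not pass.

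The comparison of Cd4 sgRNA with control sgRNA cells asks what the sgRNA target adds to the system that both groups carry. None of the 7 genes passed in edgeR's quasi-likelihood test, against 0.0725% of all genes tested, 0.0242% higher and 0.0483% lower. The groups did not overlap for 5 of the 7, against 59.7% of all tested genes, and 3 of them, Egln1, Egln3 and Vhl, had an unadjusted p under 0.05, as had 24.9% of all genes. Both counts include Egln3, which passed the low-count filter only through the control sgRNA libraries, so its part in them is no support. DESeq2 called 1 of the 7, Egln1, as lower, against 889 lower and 538 higher of all 12418 tested genes. For voomLmFit the count was 0, against 7 of all tested genes. The difference was nonetheless large for Egln1, at -1.71 on the log2 scale. Egln3 stood at -3.23, a value that the same filter favoured. The 3 comparisons share their groups, so the same wild-type or control libraries enter more than 1 of them.

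**Figure D1:**
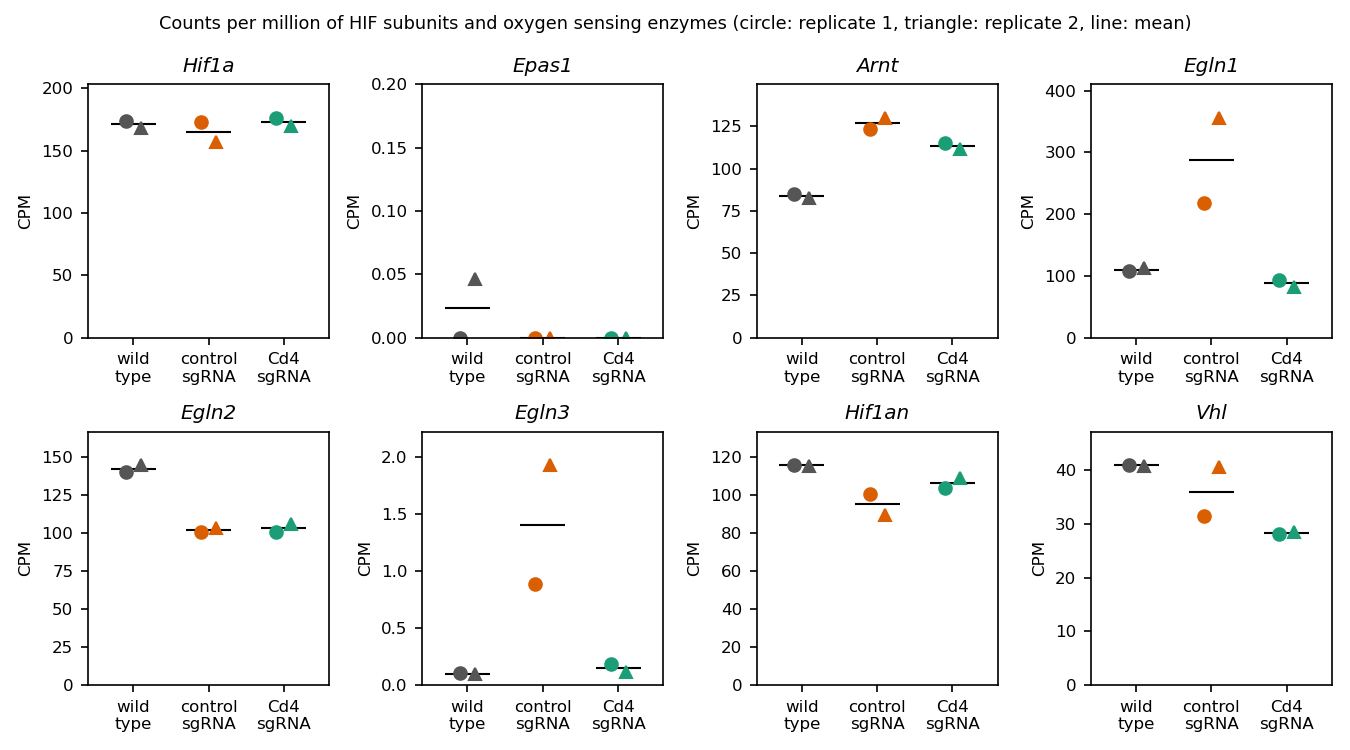
Level of each gene in each library, in CPM on a linear axis that starts at 0 and is scaled separately for each gene. Circles are replicate 1, triangles replicate 2 and lines the group means. Egln1 reaches 219 and 356 CPM in the control sgRNA libraries and stays between 82.1 and 113 CPM elsewhere, while Hif1a lies between 157 and 177 CPM in all 6 libraries.

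The alpha subunits were a case of 1 expressed gene and 1 silent gene. Hif1a, on chromosome 12 from 73901324 to 73947554 in GRCm38.p6, encodes the subunit found in nearly every cell type. It stood at 174 and 168 CPM in wild-type A20, at 173 and 157 CPM in control sgRNA cells and at 177 and 169.6 CPM in Cd4 sgRNA cells. The groups overlapped in every comparison. The log2 fold change was -0.05 for control sgRNA against wild type (95% interval -0.27 to 0.16, adjusted p = 0.68, edgeR), 0.02 for Cd4 sgRNA against wild type (-0.20 to 0.23, adjusted p = 0.91) and 0.07 for Cd4 sgRNA against control sgRNA (-0.14 to 0.28, adjusted p = 0.62). Its sign turned under some settings, which are given in the closing section, and between the TETact-v3 groups it was 0.15 without control sgRNA replicate 1 (adjusted p = 0.043, edgeR). Epas1, on chromosome 17 from 86753864 to 86833410, encodes HIF-2 alpha, best known from endothelium and kidney. It had 1 count in wild-type replicate 2 and 0 in the other 5 libraries, below the floor of 3 counts in each, and was not tested.

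Arnt, on chromosome 3 from 95434367 to 95497240, encodes the beta subunit with which HIF alpha, AHR and other factors pair. It stood at 85.0 and 82.8 CPM in wild-type A20, at 123 and 130.3 CPM in control sgRNA cells and at 115 and 112 CPM in Cd4 sgRNA cells. All 4 TETact-v3 libraries lay above both wild-type libraries, and the control sgRNA libraries lay above the Cd4 sgRNA libraries. The log2 fold change was 0.60 ± 0.081 (SE, n = 2 per group, adjusted p = 0.0054, edgeR) for control sgRNA and 0.43 ± 0.082 (adjusted p = 0.018) for Cd4 sgRNA against wild type. Between the TETact-v3 groups it was -0.16 (95% interval -0.36 to 0.03, adjusted p = 0.26). In bulk RNA a difference in the share of cells that express a gene and one in RNA per cell cannot be told apart. The ratio of Hif1a to Arnt in counts per kilobase (RPKM, CPM divided by the exonic length in kilobases) went from 1.88 and 1.86 in wild-type A20 to 1.41 and 1.39 in Cd4 sgRNA cells and 1.29 and 1.10 in control sgRNA cells.

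Egln1, on chromosome 8 from 124908587 to 124949254, encodes PHD2, the main prolyl hydroxylase of HIF alpha in most cells. It stood at 108 and 113 CPM in wild-type A20, at 219 and 356 CPM in control sgRNA cells and at 94.0 and 82.1 CPM in Cd4 sgRNA cells. Both control sgRNA libraries were above every other library, both Cd4 sgRNA libraries were below both wild-type libraries, and the control sgRNA pair was far apart. Against wild type the log2 fold change was 1.38 ± 0.23 (SE, n = 2 per group, adjusted p = 0.0093, edgeR) in control sgRNA cells and -0.33 (95% interval -0.87 to 0.22, adjusted p = 0.34) in Cd4 sgRNA cells.

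Cd4 sgRNA against control sgRNA cells gave -1.71 ± 0.23 for Egln1, 3.27-fold lower and lower in both libraries, with the 31st smallest p of all genes (unadjusted p = 0.00026, adjusted p = 0.098 in edgeR's fit across all genes). DESeq2 gave an adjusted p of 1.36e-11 for the same difference. With control sgRNA replicate 1 left out it was -2.01 (adjusted p = 5.84e-18, edgeR) and with replicate 2 left out -1.32 (adjusted p = 5.1e-12), and over all alternatives the adjusted p lay between 5.84e-18 and 0.64. Each of these left-out fits takes the spread of the lone control library from the other groups. For control sgRNA against wild type, the value was 0.99 without control sgRNA replicate 2 and 1.72 without replicate 1.

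Egln2, on chromosome 7 from 27158658 to 27166802, encodes PHD1, a mainly nuclear prolyl hydroxylase. It stood at 139.6 and 145 CPM in wild-type A20, at 101 and 103 CPM in control sgRNA cells and at 100.3 and 106 CPM in Cd4 sgRNA cells. Both TETact-v3 groups were below wild type, overlapped each other, and showed little spread between replicates. It fell by 0.48 on the log2 scale in control sgRNA cells (SE 0.081, adjusted p = 0.0097, edgeR) and by 0.46 in Cd4 sgRNA cells (SE 0.082, adjusted p = 0.015). Between those groups the log2 fold change was 0.02 (95% interval -0.18 to 0.21, adjusted p = 0.89). Cyp2t4, a neighbouring gene, lies within 94 bases of Egln2.

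Egln3, on chromosome 12 from 54178981 to 54203874, encodes PHD3, a prolyl hydroxylase known for strong induction under low oxygen. It had 5 and 2 counts in wild-type A20, 98 and 156 counts in control sgRNA cells, and 6 and 5 counts in Cd4 sgRNA cells. Scaled for depth these were 0.108 and 0.0934 CPM, 0.882 and 1.93 CPM, and 0.183 and 0.113 CPM. Control sgRNA libraries were above all others, and the other 4 libraries were near the floor. The ratio of summed counts at equal depth was 12.8 for control sgRNA against wild type (95% exact interval 6.14 to 32.2, counting error only), 9.26 for control sgRNA against Cd4 sgRNA (5.09 to 18.8) and 1.38 for Cd4 sgRNA against wild type (0.490 to 4.21). Egln3 passed the low-count filter only through the control sgRNA libraries. Neither these ratios and intervals nor the fold changes that follow are therefore support, and the intervals leave out the spread between libraries. The control sgRNA libraries are also the deepest, and with every library thinned to the depth of the shallowest the log2 fold change against wild type was 3.52, beside 3.69 before thinning.

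**Figure D2:**
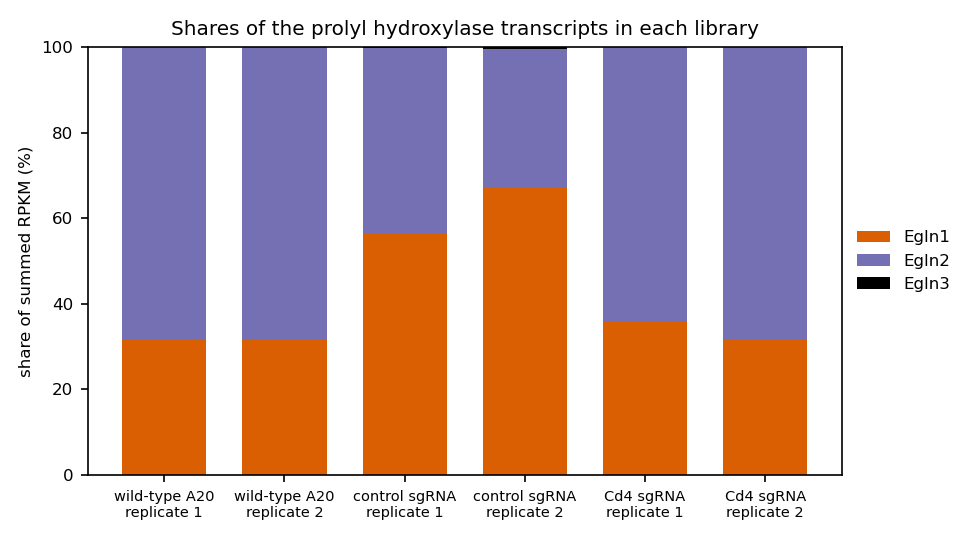
Share of the summed RPKM of Egln1, Egln2 and Egln3 taken by each gene, in percent, as a stacked bar per library. Egln1 takes 56.4% and 67.1% in control sgRNA cells and 31.6% to 35.9% in the other 4 libraries. The Egln3 share is at most 0.478% and is barely visible.

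Per length, Egln2 was the most abundant prolyl hydroxylase transcript in wild-type A20 and Egln1 was in control sgRNA cells. The share of Egln1 in the summed RPKM of the 3 Egln genes was 31.6% and 31.8% in wild-type A20, 35.9% and 31.7% in Cd4 sgRNA cells and 56.4% and 67.1% in control sgRNA cells. The RPKM of Egln1 was 0.462 and 0.467 times that of Egln2 in wild-type A20, 0.560 and 0.464 times in Cd4 sgRNA cells, and 1.30 and 2.07 times in control sgRNA cells. The sum over the family was 96.9 and 101 RPKM in wild-type A20, 74.4 and 73.6 in Cd4 sgRNA cells, and 110.1 and 151 in control sgRNA cells. The family total was thus lowest in Cd4 sgRNA cells, where Egln2 was low and Egln1 was not high. The 3 groups did not overlap in it, but neither did the CPM of 67.1%, 79.8% and 59.7% of all tested genes in the 3 pairwise comparisons. These shares and sums use the deposited exonic lengths, with 2107 bases for Egln2 against 2800 in GENCODE. They were not recomputed with the latter.

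Hif1an, on chromosome 19 from 44562854 to 44576274, encodes FIH, which hydroxylates an asparagine of HIF alpha and needs less oxygen than the prolyl hydroxylases do. It stood at 116 and 115 CPM in wild-type A20, at 101 and 89.6 CPM in control sgRNA cells and at 103 and 109 CPM in Cd4 sgRNA cells. All 4 TETact-v3 libraries lay below wild type, and no comparison passed with all libraries in the fit. The log2 fold change against wild type was -0.28 (95% interval -0.50 to -0.06, unadjusted p = 0.022, adjusted p = 0.068, edgeR) in control sgRNA cells and -0.12 (-0.35 to 0.10, adjusted p = 0.38) in Cd4 sgRNA cells. For Cd4 sgRNA against control sgRNA it was 0.16 (-0.06 to 0.38, adjusted p = 0.31). Control sgRNA against wild type gave -0.35 without control sgRNA replicate 1 (adjusted p = 5.29e-05, edgeR) and -0.19 without replicate 2 (adjusted p = 0.011), and Cd4 sgRNA against control sgRNA gave 0.25 (adjusted p = 0.0016) and 0.075 (adjusted p = 0.43). With only the 2 groups in the fit, Cd4 sgRNA against wild type passed at -0.12 (adjusted p = 0.043).

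Vhl, on chromosome 6 from 113623994 to 113631634, encodes the subunit of the ubiquitin ligase that recognises hydroxylated HIF alpha. It stood at 41.0 and 40.8 CPM in wild-type A20, at 31.5 and 40.5 CPM in control sgRNA cells and at 28.1 and 28.5 CPM in Cd4 sgRNA cells. The wild-type and Cd4 sgRNA pairs were tight, and the control sgRNA pair was split, with replicate 1 near the Cd4 sgRNA level and replicate 2 near the wild-type level. Vhl fell by 0.53 on the log2 scale in Cd4 sgRNA cells (SE 0.14, adjusted p = 0.043, edgeR). That call was lost with scaling by library size (adjusted p = 0.058), with voomLmFit (adjusted p = 0.061) and with the replicate number as a block (adjusted p = 0.051), while the log2 fold change stayed between -0.54 and -0.49. In control sgRNA cells it was -0.19 (95% interval -0.51 to 0.14, adjusted p = 0.33), and it was 0.01 without control sgRNA replicate 1 and -0.38 without replicate 2. Cd4 sgRNA against control sgRNA gave -0.35 (-0.68 to -0.02, unadjusted p = 0.042, adjusted p = 0.19), with -0.51 (adjusted p = 1.66e-06, edgeR) without control sgRNA replicate 1 and -0.15 (adjusted p = 0.14) without replicate 2.

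**Figure D3:**
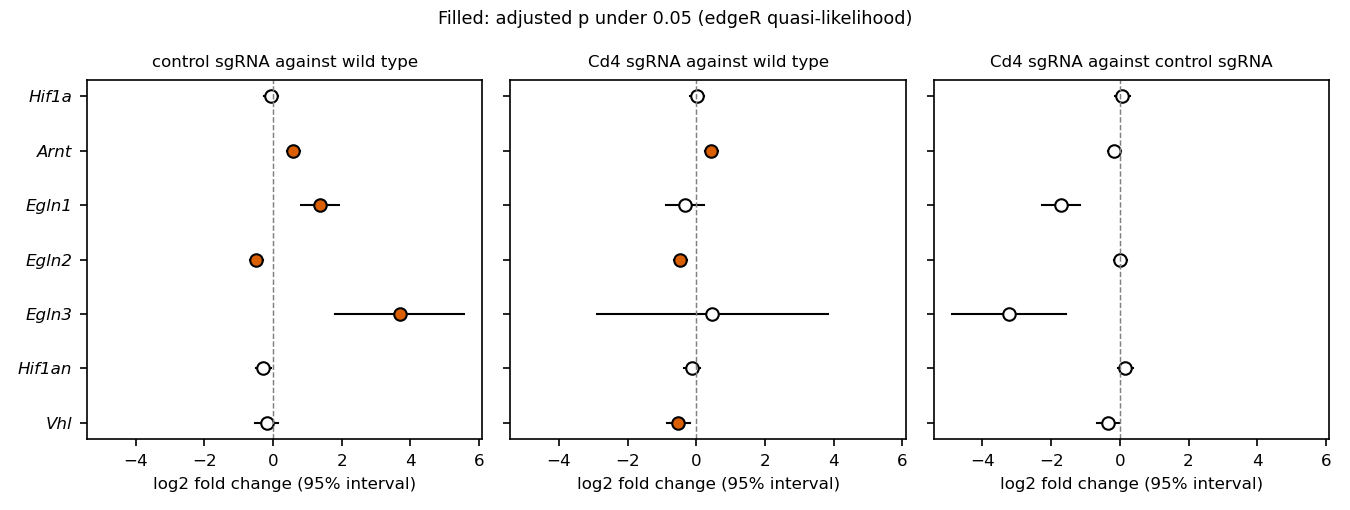
Log2 fold change of the 7 tested genes in the 3 comparisons with 95% intervals, filled where the adjusted p was under 0.05 in edgeR's quasi-likelihood test. Arnt lies above 0 and Egln2 below 0 in both comparisons with wild type, and Egln1 and Egln3 lie above 0 for control sgRNA cells, at 1.38 and 3.69, and below 0 in the last panel, at -1.71 and -3.23. Egln3 passed the low-count filter only through the control sgRNA libraries.

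The calls against wild type depended on both wild-type libraries. Without either of them, or, for Cd4 sgRNA cells, without either Cd4 sgRNA library, none of the genes passed an adjusted p of 0.05 in these comparisons (edgeR), although the values moved little. Arnt then lay between 0.60 and 0.64 for control sgRNA cells and between 0.42 and 0.48 for Cd4 sgRNA cells, and Egln2 between -0.48 and -0.43 and between -0.50 and -0.41.

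The order of the 8 genes by RPKM changed with the group. In wild-type A20 it was Egln2 at 67.5 ± 1.69 (SD, n = 2), Hif1a at 35.9 ± 0.898, Egln1 at 31.3 ± 1.02, Arnt at 19.2 ± 0.361, Hif1an at 18.7 ± 0.0850, Vhl at 15.0 ± 0.0524, Egln3 at 0.0376 ± 0.00375, and Epas1, and no neighbours overlapped. In Cd4 sgRNA cells Egln2 stood at 48.9 ± 1.85, Hif1a at 36.4 ± 1.04, Arnt at 26.0 ± 0.492 and Egln1 at 24.99 ± 2.40, followed by Hif1an at 17.2 ± 0.623 and Vhl at 10.4 ± 0.100, and Arnt and Egln1 overlapped. Egln1 led in control sgRNA cells at 81.6 ± 27.6, ahead of Egln2 at 48.3 ± 0.873, Hif1a at 34.6 ± 2.42, Arnt at 29.0 ± 1.13, Hif1an at 15.4 ± 1.29 and Vhl at 13.2 ± 2.35, and the last of these pairs overlapped. With exonic lengths from GENCODE in place of those in the files, Arnt is 8007 rather than 4370 bases long. In wild-type A20 it then dropped below Vhl and Egln1 moved above Hif1a, in Cd4 sgRNA cells Arnt dropped below Egln1 and Hif1an, and the order in control sgRNA cells was the same. Egln2 led in wild-type and Cd4 sgRNA cells and Egln1 in control sgRNA cells with either length.

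Genes that act with these sensors were counted in lists chosen by function, with earlier results of these data known. The list counts stand beside the shares over all tested genes given above, 14.5% higher and 13.5% lower for control sgRNA and 9.85% higher and 10.7% lower for Cd4 sgRNA against wild type (edgeR). Because of how the lists were chosen, a count that departs from these shares is no independent support. Over all 12418 tested genes, DESeq2 called 2196 higher and 1954 lower for control sgRNA, and 1735 and 1812 for Cd4 sgRNA, against wild type. Between the TETact-v3 groups it called 538 higher and 889 lower. An unadjusted p under 0.05 (edgeR) was found for 5285, 4663 and 3090 genes in the 3 comparisons. Of the calls named below, 19 for control sgRNA and 13 for Cd4 sgRNA against wild type, 18 and 12 were lost without wild-type replicate 1 and 15 and 12 without wild-type replicate 2. Without either Cd4 sgRNA library 6 of the 19 and 12 of the 13 were lost. Among 13 other bHLH-PAS factors, the family of HIF and ARNT, 7 were tested, with 1 higher and 2 lower than wild type in control sgRNA cells. Hif3a, a HIF alpha paralogue, was at 1.55 and 1.26 CPM in wild-type A20, 7.97 and 5.43 CPM in control sgRNA cells and 4.06 and 5.26 CPM in Cd4 sgRNA cells. It rose in both, by 2.22 ± 0.31 (SE, adjusted p = 0.0059, edgeR) and 1.70 ± 0.34 (adjusted p = 0.021) on the log2 scale. Ahr, the dioxin receptor that also pairs with ARNT, fell by 0.47 in control sgRNA cells (adjusted p = 0.040), and Npas1, a neuronal factor, fell by 0.97 (adjusted p = 0.033). Both calls were also lost with only the 2 groups in the fit and after thinning to equal depth, and Npas1 was -0.49 without wild-type replicate 1. In Cd4 sgRNA against wild-type cells only Hif3a passed, and between the TETact-v3 groups 0 did in edgeR, DESeq2 or voomLmFit and 0 had an unadjusted p under 0.05, with Npas1 at 0.56 and Hif3a at -0.52. Hif3a was -0.19 there without control sgRNA replicate 1 and -0.75 without replicate 2 (adjusted p = 0.00020, edgeR). The list medians were -0.29, -0.19 and 0.11 in the 3 comparisons, beside medians of -0.0012, 0.0045 and -0.0078 over all tested genes. The first was -0.12 without control sgRNA replicate 2, -0.17 without replicate 1 and -0.18 without wild-type replicate 1, the second -0.067 without wild-type replicate 1, and the third 0.073 without control sgRNA replicate 1.

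Of the 14 genes of the VHL ubiquitin ligase and its regulators, all were tested, and edgeR called 3 lower and 0 higher in each comparison with wild type. DESeq2 called 4 lower in each, against 1954 and 1812 of all 12418 tested genes, and 0 and 1 higher, against 2196 and 1735. An unadjusted p under 0.05 (edgeR) was found for 6 and 7, against 5285 and 4663 of all tested genes. Nedd8, the ubiquitin-like protein that activates cullins, was at 100.3 and 91.6 CPM in wild-type A20, at 64.8 and 60.7 CPM in control sgRNA cells and at 63.5 and 60.3 CPM in Cd4 sgRNA cells. It fell by 0.61 (adjusted p = 0.0069, edgeR) and 0.63 (adjusted p = 0.0093) on the log2 scale. Ube2d2a, a ubiquitin-conjugating enzyme, fell by 0.42 and 0.33. Rbx1, the RING subunit of the ligase, fell by 0.47 in control sgRNA cells, and Elob, elongin B, fell by 0.42 in Cd4 sgRNA cells. The list medians were -0.15 and -0.03, and they ranged over the alternatives from -0.16 to -0.041, the latter without control sgRNA replicate 2, and from -0.087 without wild-type replicate 1 to 0.079 without wild-type replicate 2. None of the 14 passed between the TETact-v3 groups in edgeR, with Ube2d3 at 0.32 and Elob at -0.23 and a list median of 0.06, and 2 had an unadjusted p under 0.05 and DESeq2 called 0. Without control sgRNA replicate 2 Ube2d3 was 0.18 and the median -0.036, and without replicate 1 the median was 0.14.

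Among 16 other regulators of HIF protein 15 were tested, of which edgeR called 2 higher than wild type in control sgRNA cells and 1 in Cd4 sgRNA cells, and 0 lower. DESeq2 called 3 and 2 higher and 1 lower in each. An unadjusted p under 0.05 (edgeR) was found for 6 and 4, against 5285 and 4663 of all 12418 tested genes. Siah2, a ubiquitin ligase that targets prolyl hydroxylases for degradation, was at 77.8 and 83.6 CPM in wild-type A20, at 132 and 134 CPM in control sgRNA cells and at 97.6 and 101 CPM in Cd4 sgRNA cells. It rose by 0.72 ± 0.084 (SE, adjusted p = 0.0035, edgeR) and by 0.30 ± 0.084 (adjusted p = 0.050, just under the threshold), and the latter call was lost in 9 of 17 alternatives, with adjusted p up to 0.32. Senp1, a protease that removes SUMO from HIF-1 alpha, rose by 0.33 in control sgRNA cells (adjusted p = 0.038). Between the TETact-v3 groups Siah2 stood at -0.42 and Rwdd3, which promotes SUMO attachment, at -0.76, none passed in edgeR, 4 had an unadjusted p under 0.05 and DESeq2 called 1 lower. Rwdd3 was -0.48 without Cd4 sgRNA replicate 1 and -1.19 without replicate 2. The list medians were 0.18, 0.06 and 0.04, of which the first was 0.0088 without control sgRNA replicate 2, the second ranged from 0.033 to 0.10 over the alternatives, and the third was -0.0028 without Cd4 sgRNA replicate 2.

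Of 10 coactivators and CITED proteins 8 were tested, and 1 was higher and 1 lower in each comparison with wild type. Cited2, which competes with HIF-1 alpha for p300 and CBP and is itself known as a HIF target, was at 199.9 and 208 CPM in wild-type A20, at 121 and 129 CPM in control sgRNA cells and at 96.0 and 91.9 CPM in Cd4 sgRNA cells. It fell by 0.71 (SE 0.085, adjusted p = 0.0038, edgeR) and by 1.12 (SE 0.086, adjusted p = 0.0016) on the log2 scale. Med1, a Mediator subunit, rose by 0.57 and 0.59. None passed between the TETact-v3 groups in edgeR, with Cited2 at -0.41 and Apex1, a redox factor, at 0.23, while 1 had an unadjusted p under 0.05 and DESeq2 called 1 lower. Apex1 was -0.03 there without control sgRNA replicate 2 and 0.56 without replicate 1 (adjusted p = 7.91e-08, edgeR). The list medians were -0.04, -0.07 and -0.03, and they ranged over the alternatives from -0.13 without control sgRNA replicate 2 to 0.010 without wild-type replicate 1, from -0.11 without Cd4 sgRNA replicate 1 to -0.016 without wild-type replicate 1, and from -0.096 without control sgRNA replicate 1 to 0.030 without Cd4 sgRNA replicate 2.

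Among 28 other enzymes that use oxygen, nearly all of them with 2-oxoglutarate, 26 were tested. In control sgRNA cells 12 were higher and 1 was lower than in wild type, against 14.5% and 13.5% of all tested genes, with a list median of 0.42. Alkbh5, an RNA demethylase, was at 273 and 282 CPM in wild-type A20, at 498 and 606 CPM in control sgRNA cells and at 350.4 and 358 CPM in Cd4 sgRNA cells, and rose by 0.99 ± 0.11 in control sgRNA cells (SE, adjusted p = 0.0035, edgeR). Plod1, a lysyl hydroxylase of collagen, rose by 1.66 in control sgRNA and 0.86 in Cd4 sgRNA cells, and Jmjd6 rose by 0.73 in control sgRNA cells. P4ha2, a collagen prolyl hydroxylase, had 28 and 16 counts in wild-type A20, 1 and 0 in control sgRNA cells and 0 in both Cd4 sgRNA libraries. It was called lower in both comparisons (adjusted p = 0.0037 and 0.0097, edgeR). However, it passed the low-count filter only through the wild-type libraries, where it is high, so neither call is support. P4ha2 is the gene counted as lower in control sgRNA cells here and in Cd4 sgRNA cells below.

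In Cd4 sgRNA against wild-type cells 2 of the 26 oxygenases were higher and 1 was lower, against 9.85% and 10.7% of all tested genes, with a median of 0.07 (0.13 without wild-type replicate 1), and Kdm2b, a histone demethylase, rose by 0.33. In Cd4 sgRNA against control sgRNA cells 0 passed in edgeR and in voomLmFit. An unadjusted p under 0.05 (edgeR) was found for 16, against 24.9% of all tested genes. DESeq2 called 1 higher and 12 lower, against 538 and 889 of all 12418 tested genes. The median was -0.41, and the histone demethylases Kdm4b and Kdm6b stood at -1.21 (adjusted p = 0.058) and -1.07 (adjusted p = 0.10). Without control sgRNA replicate 2 the median against wild type was 0.29, and the median between the TETact-v3 groups was -0.21 without replicate 1 and -0.23 without replicate 2. Of 17 enzymes that make or use 2-oxoglutarate, succinate and fumarate, the co-substrate and inhibitors of the hydroxylases, edgeR called only Ogdh against wild type, while DESeq2 called 1 higher and 1 lower in control sgRNA cells and 3 higher in Cd4 sgRNA cells. Ogdh, a subunit of the 2-oxoglutarate dehydrogenase complex, rose by 0.76 ± 0.084 (SE, adjusted p = 0.0031, edgeR) in control sgRNA and 0.52 ± 0.084 (adjusted p = 0.012) in Cd4 sgRNA cells. Its level was 329.6 and 343 CPM in wild-type A20, 549.9 and 587 CPM in control sgRNA cells, and 484 and 479 CPM in Cd4 sgRNA cells. Between the TETact-v3 groups Ogdh stood at -0.24 and D2hgdh at -0.39, none passed in edgeR, 2 had an unadjusted p under 0.05 and DESeq2 called 1 lower. The list medians were -0.01, 0.03 and 0.02, and they ranged over the alternatives from -0.045 without control sgRNA replicate 2 to 0.068 without replicate 1, from -0.0032 without Cd4 sgRNA replicate 2 to 0.074 without replicate 1, and from 0.011 to 0.073, the latter without control sgRNA replicate 2.

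**Figure D4:**
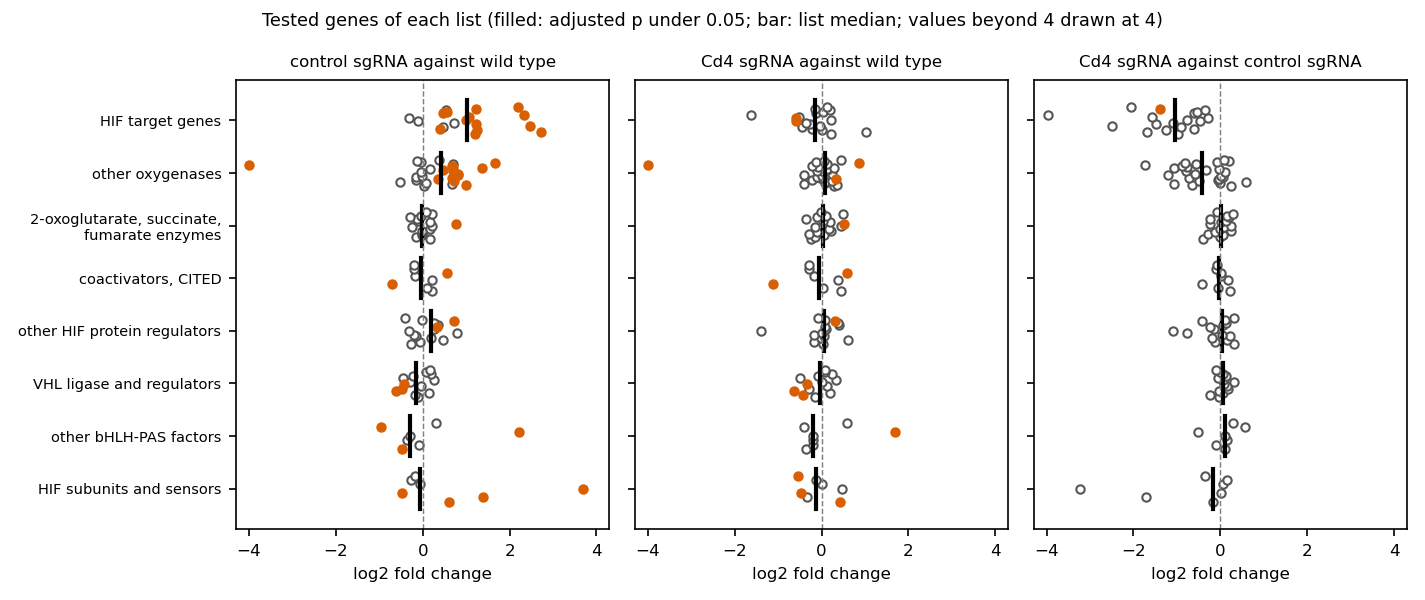
Log2 fold change of every tested gene of each list in the 3 comparisons, filled where the adjusted p was under 0.05 (edgeR), with a bar at the list median. The HIF target genes and the other oxygenases lie mostly above 0 for control sgRNA against wild type, with medians of 1.03 and 0.42, and mostly below 0 in the last panel, with medians of -1.03 and -0.41. Values beyond 4, those of P4ha2, are negative and are drawn 4 below 0. P4ha2 passed the low-count filter only through the wild-type libraries.

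HIF target genes outside the oxygen sensors are given for comparison with Egln1 and Egln3. This list was also chosen with earlier results known, and it does not hold every HIF target. Cited2, counted among the coactivators above, is a known target that was lower than wild type in both comparisons. The counts below therefore hold for the listed genes only, and the lists are not independent of each other. Of 20 listed, 18 were tested, with 13 higher and 0 lower than wild type in control sgRNA cells (edgeR), against 14.5% and 13.5% of all tested genes, with a median of 1.03. DESeq2 called 15 higher and 1 lower, against 2196 and 1954 of all 12418 tested genes, and voomLmFit 10 and 0, against 1546 and 1576. An unadjusted p under 0.05 (edgeR) was found for 17, against 5285 of all tested genes. Among them Slc2a1, a glucose transporter, rose by 1.23, Bnip3, a mitophagy receptor, by 1.25, Adm, adrenomedullin, by 1.21, and Ankrd37 by 2.72 on the log2 scale (adjusted p = 0.00097, 0.0025, 0.0054 and 0.0091, edgeR). Slc2a1 was at 118 and 125 CPM in wild-type A20, 276 and 293 CPM in control sgRNA cells and 111 and 108 CPM in Cd4 sgRNA cells. In Cd4 sgRNA against wild-type cells edgeR called 0 higher and 2 lower, against 9.85% and 10.7% of all tested genes. DESeq2 called 1 and 3, against 1735 and 1812 genes, and 4 had an unadjusted p under 0.05 (edgeR), against 4663. Ldha fell by 0.59 and Higd1a by 0.58, and the median was -0.14. Against control sgRNA cells all 18 lay below 0 in Cd4 sgRNA cells, with a median of -1.03, and only Slc2a1 passed, at -1.38 ± 0.086 (SE, adjusted p = 0.010, edgeR). DESeq2 called 16 of them lower, against 889 of all 12418 tested genes, and voomLmFit 1, against 6. An unadjusted p under 0.05 (edgeR) was found for 17, against 24.9% of all tested genes. Both control sgRNA libraries exceeded all 4 other libraries for 16 of the 18 target genes and for 3 of the 7 oxygen sensing genes, against 15.8% of all tested genes. The 3 were Egln1, Arnt and Egln3, and for Egln3 the low-count filter, which it passed only through those libraries, had set that order. The medians were 0.61 and 1.22 without control sgRNA replicate 2 and replicate 1, for control sgRNA cells, and -0.89 and -1.28 between the TETact-v3 groups. A promoter window was at hand for 18 of the 20 listed, which need not be the 18 tested, and 12 held ACGTG in any window. The 16.6% given above counts windows rather than genes, so it cannot be set against this count.

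**Figure D5:**
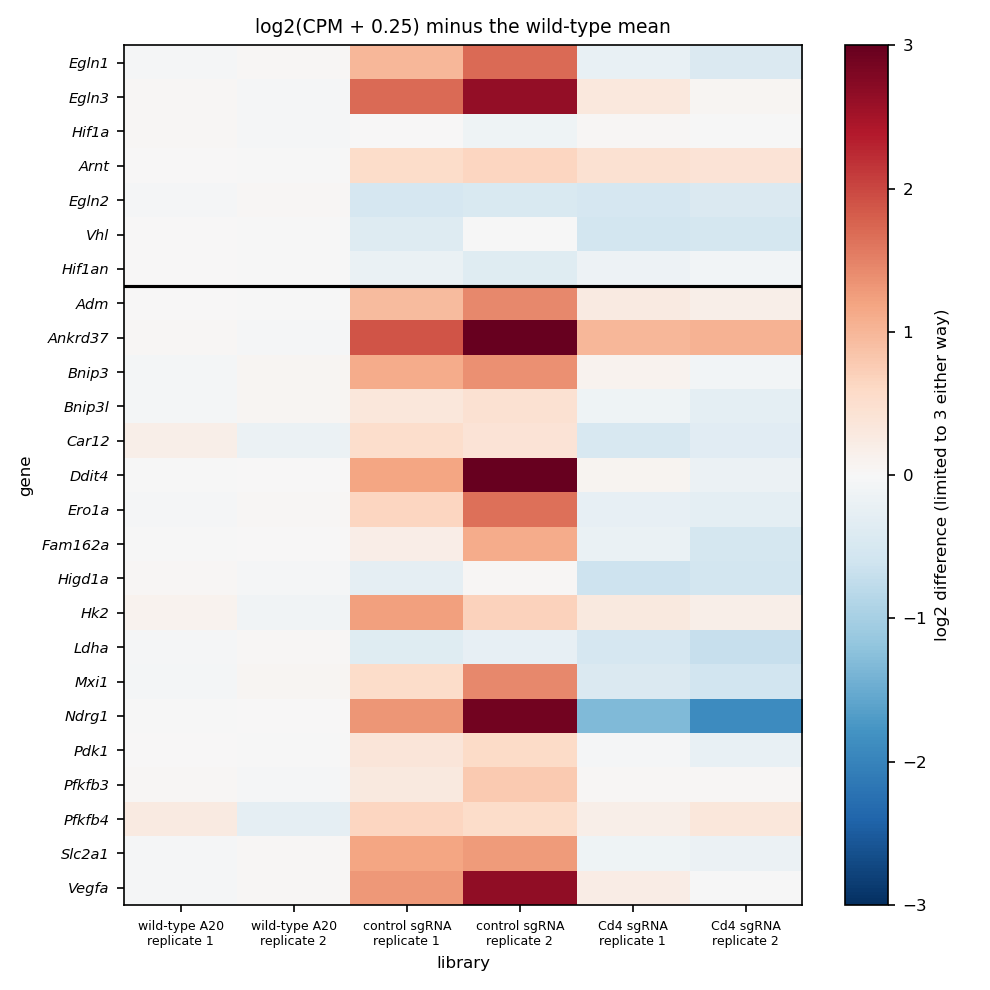
Difference from the wild-type mean in log2(CPM + 0.25) for each library, with the 7 tested oxygen sensing genes above the line and the 18 tested HIF target genes below it, and colours limited to 3 either way. Control sgRNA replicate 2 is the darker of its pair for Egln1, at 1.69 against 0.99, and for Egln3, at 2.64 against 1.69, and Hif1a stays within 0.13 of 0 in every library.

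Control sgRNA replicate 2 had more Egln1 and Egln3 than replicate 1, and it was the higher of the pair for 15 of the 18 tested HIF targets, against 49.7% of all tested genes. Car12, Hk2 and Pfkfb4 were higher in replicate 1. The gap was wide for Ddit4, at 411 against 107 CPM, Ndrg1, at 139 against 46.1 CPM, and Vegfa, at 42.6 against 16.2 CPM. For Slc2a1, at 293 against 276 CPM, the pair was close. Car9, a HIF target that did not pass the filter, had 114 counts in control sgRNA replicate 2 and at most 5 in any other library. Ddit4, Ndrg1, Vegfa, Car12, Hk2, Pfkfb4 and Car9 were named here after their values were seen. The mitochondrial share, 11.5% against 6.63%, was also higher in replicate 2, and its part in these values was not tested.

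The genes whose CPM pattern over the 6 libraries was most like that of Egln1, Egln3, Egln2 and Vhl were found by Pearson's r of log2 CPM among 10169 tested genes with an average log2 CPM of at least 1 (10170 for Egln3). These values describe the same 6 libraries, with 2 in each group. An r above 0.99 was reached by 14 genes for Egln1, 15 for Egln3, 33 for Egln2 and 30 for Vhl. For Egln1 they were Proser3, Epcam and Ccng2, with r of 0.9977, 0.9974 and 0.9973. Ccng2, cyclin G2, was at 73.0 and 75.7 CPM in wild-type A20, 163 and 305 CPM in control sgRNA cells and 67.3 and 58.8 CPM in Cd4 sgRNA cells. For Egln3 they were Zranb3, Adm and Raph1, with r of 0.9964, 0.9943 and 0.9943, and Adm is on the list of HIF targets above. Egln3 was near the floor outside the control sgRNA libraries, through which alone it passed the filter, so this likeness is no support. For Egln2 they were Cyb561d1, Rab6a and Ei24, with r of 0.9976, 0.9972 and 0.9969. The closest to Vhl were Mlycd, Iah1 and Tmem106c, with r of 0.9989, 0.9983 and 0.9969. Mlycd, malonyl-CoA decarboxylase, was at 28.0 and 28.5 CPM in wild-type A20, 17.7 and 28.3 CPM in control sgRNA cells and 15.0 and 15.3 CPM in Cd4 sgRNA cells, with the same split of the control sgRNA pair as Vhl.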

How the data were processed

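RNA was sequenced from 6 libraries of A20 cells. Reads were mapped to mm10 (GRCm38) by the authors using Rsubread, and featureCounts with the RefSeq annotation built into it gave a value per Entrez gene. The deposited files hold these raw counts, beside an exonic length per gene. Strand setting and treatment of shared reads are not given in the sources used here, and in RefSeq Hif1a overlaps Gm15283 and Egln1 overlaps Gm46060. Reads carry no molecular identifiers, so intervals and floors on counts cover counting error only. A table of the whole series repeats these counts and was not used. The labels do not say that replicates came from separate cultures. The study's methods call them independent repeats. The p-values rest on the spread between these samples, pooled over the 3 groups and moderated across all genes.

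RefSeq gene names of GRCm38.p6 matched 25275 of 27179 identifiers. Unnamed, mitochondrial and similar genes were removed as in the study's methods, and filterByExpr left 12418 genes. The main test was edgeR 4.0.16 (glmQLFit, robust, and glmQLFTest) with TMM scaling, 1 term per group over all 6 libraries, in R 4.3.3, two-sided, with Benjamini-Hochberg adjustment at 0.05. CPM and RPKM were computed here from the deposited counts. Standard errors were derived from the log2 fold change and F. Counts of replicates differed beyond sampling noise, so they were kept separate. Chi-square over its degrees of freedom was 8.20 in wild-type, 7.07 in Cd4 sgRNA and 245 in control sgRNA cells, whose libraries were also the deepest. The main fit took the spread of each gene from all 3 groups together, so the wide control sgRNA pair enters every p-value. The test was run on simulated counts in which all groups had the same spread per gene. That setting does not cover the wider control sgRNA pair. The members and lists were chosen with earlier results of these data known. Named were the 8 genes, per list and comparison at most 4 called genes with the smallest p (where none was called, at most 2 as values), 3 genes most like each called member (those for Arnt are not reported here), and Cd4. Alternatives were voomLmFit (limma 3.58.1), DESeq2 1.42.0, other scaling and filters, only the 2 groups compared, a replicate block, thinning to equal depth, and each library left out. Alternatives chosen after seeing the data were edgeR's legacy quasi-likelihood method and a crossed block. Promoter sequences came from RefSeq.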

Additional observations from a re-analysis of the deposited data

Results flagged for a closer look

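Slc2a1, a glucose transporter gene on the list of HIF targets, was singled out because its response to the system differed between the groups by a test of the difference itself. Its log2 fold change against wild type was 1.23 in control sgRNA cells and -0.15 in Cd4 sgRNA cells, and the difference between the groups was -1.38 (adjusted p = 0.010 in edgeR's fit across all genes), lower in both libraries. Over the alternatives that value lay between -1.42 and -1.34, and the adjusted p between 5.1e-34 and 0.58.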

How the results depend on the processing

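For the log2 fold changes of named genes, 1115 values were computed under alternatives over 66 results, of which 920 kept direction and side of the threshold, 146 kept direction and lost the call, 42 kept direction and gained it, and 7 changed sign. In control sgRNA against wild-type cells 3477 genes passed, 1571 with only the 2 groups compared and between 117 and 8210 with a library left out, and the called oxygen sensing genes were 4, and between 0 and 6 with a library left out. In Cd4 sgRNA against wild-type cells 2550 genes passed, 7452 with only the 2 groups compared and between 81 and 7594 with a library left out, and the called oxygen sensing genes were 3, 5 with only the 2 groups compared, and between 0 and 4 with a library left out. Between the TETact-v3 groups 9 genes passed, 18 with no expression filter, 1427 with DESeq2, 1 with only the 2 groups compared and between 1 and 7841 with a library left out, and the called oxygen sensing genes were 0, 1 with DESeq2 (Egln1), and between 0 and 6 with a library left out, 6 without control sgRNA replicate 1 and 2 without replicate 2. Counts rose when either control sgRNA library, whose pair was the farthest apart, was left out. Signs turned for Hif1a in control sgRNA against wild-type cells after thinning (0.0038), and with libraries left out they turned for Hif1a in control sgRNA against wild-type cells (range -0.105 to 0.0174, above 0 without control sgRNA replicate 2), for Hif1a in Cd4 sgRNA against wild-type cells (-0.0112 to 0.0689, below 0 without Cd4 sgRNA replicate 1), for Hif1a between the TETact-v3 groups (-7e-04 to 0.1475, below 0 without control sgRNA replicate 2), for Vhl in control sgRNA against wild-type cells (-0.377 to 0.0081, above 0 without control sgRNA replicate 1), for Egln2 between the TETact-v3 groups (-0.0175 to 0.0599, below 0 without Cd4 sgRNA replicate 2), and for Apex1 there (-0.027 to 0.5583, below 0 without control sgRNA replicate 2). The cause was not tested. The replicate numbers did not pair the samples, with correlations of deviations of 0.01, -0.04 and -0.14, and with the replicate block 2971, 2037 and 7 genes and 4, 2 and 0 oxygen sensing genes passed in the 3 comparisons. A crossed block between the TETact-v3 groups, chosen after seeing the data, gave 12 genes and 0 oxygen sensing genes. edgeR's legacy method gave 3647, 2873 and 9 genes. Egln3 gave no value under a stricter filter or where the filter removed it. A left-out fit assumes that the lone library varies like the other groups. Depth limits Egln3 and Epas1, near or under 3 counts in most libraries.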
